A study of Homo sapiens with 3 samples.

Results

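Of 4812 cell barcodes kept from 3 single-cell RNA libraries of stem cell-derived alpha cells, 50 held at least 2 UMIs of ALB, the transcript of serum albumin. A UMI, or unique molecular identifier, stands for 1 captured RNA molecule. The cells were thus chosen by their measured ALB count, which is described and not tested. They are called ALB cells below: 13 of 1458 kept barcodes in replicate 1, 12 of 1232 in replicate 2 and 25 of 2122 in replicate 3. Barcodes were kept with at least 1000 detected genes and at most 30% of their UMIs from mitochondrial genes. The share of ALB cells was 0.892% in replicate 1 (exact Clopper-Pearson 95% interval 0.476 to 1.52%), 0.974% in replicate 2 (0.504 to 1.70%) and 1.18% in replicate 3 (0.764 to 1.73%), a mean of 1.01% ± 0.147 (SD, n = 3 libraries). The 3 intervals overlapped. These intervals cover counting error only.

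The series holds 1 group of 3 libraries, numbered as replicates of SC-A. The source was HUES8, a long-used line of human embryonic stem cells, taken through a published differentiation into SC-α cells, which are glucagon-making cells of the islet kind. The differentiated clusters were dispersed with an enzyme and loaded without a stated sort onto the 10x Genomics 3′ v3 system. No genotype, drug or time differs between the libraries, so every comparison lies within libraries, between groups of cells. Nothing in the labels says that the libraries came from separate differentiations, and p-values cover no spread beyond these 3. The test used pools information on spread across genes, so a very small p does not show that the 3 libraries changed alike.

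Albumin is the main protein that hepatocytes secrete into blood, and AFP, alpha-fetoprotein, is its fetal relative and neighbour on the chromosome. AMBP is made chiefly in liver too and is cut into an immunoglobulin-binding protein and a protease inhibitor. Alpha cells make glucagon from GCG, and they share several secreted proteins with liver, among them transthyretin (TTR), the vitamin D carrier (GC) and the protease inhibitor alpha-1-antitrypsin (SERPINA1). Enterochromaffin cells make serotonin: TPH1 is its first, limiting enzyme, DDC the next, and FEV a transcription factor of serotonin cells. Liver, pancreas and gut all form from endoderm. Cells with serotonin genes are known from other stem cell-derived islet cultures.

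ALB itself spanned a wide range. In replicate 1 the lowest of the 13 cells held 2 ALB UMIs, the median 5 and the highest 441. In replicate 2 the values were 2, 8 and 200, and in replicate 3 they were 2, 8 and 172. In all, 21 cells held 2 to 4 UMIs, 14 held 5 to 19, and 15 held 20 or more, of which 5 held 100 or more. A few cells therefore carried most of the transcript. The single highest cell gave 59.7% of all ALB UMIs of the kept barcodes in replicate 1, 55.6% in replicate 2 and 25.1% in replicate 3. Just inside the threshold lay 9 cells with 2 UMIs and 9 with 3, and just outside it 89 barcodes with 1 UMI (34, 28 and 27). Together the 50 cells held 1695 of 1784 ALB UMIs, or 95.4, 92.2 and 96.1% by library. Summed over the ALB cells of a library, ALB stood at 2563, 1325 and 1808 CPM, UMIs per 1000000 UMIs summed.

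**Figure D1:**
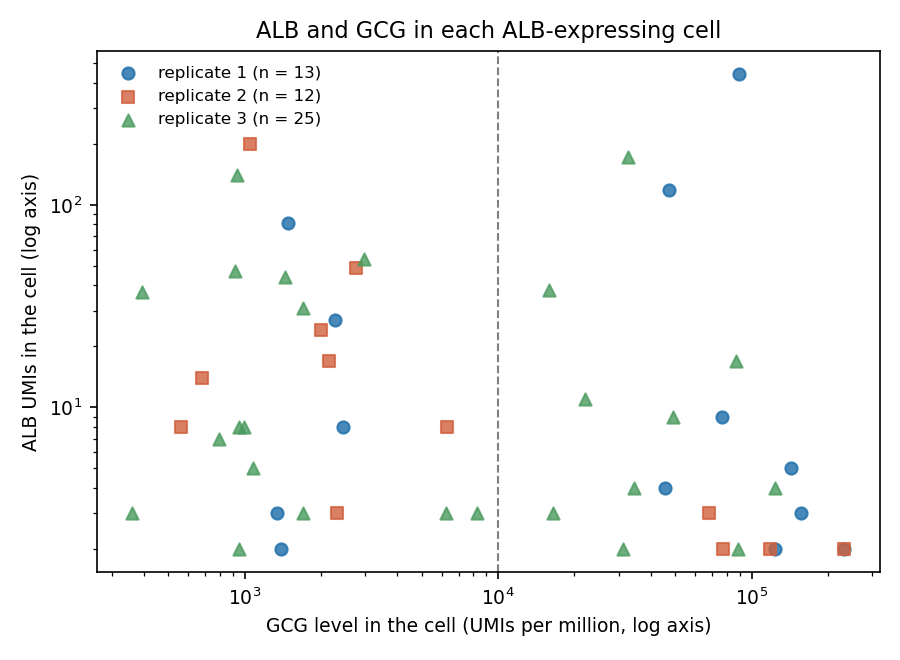
ALB UMIs of each ALB cell (vertical, log axis) against its GCG level in CPM (horizontal, log axis), 1 marker per cell, with colour and shape for the 3 replicates and a dashed line at 10000 CPM. Cells with 20 or more ALB UMIs lie on both sides of the line, 11 on the left and 4 on the right.

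ALB lies on chromosome 4 at 73397114-73421412 (GRCh38, plus strand, GENCODE 29), 9726 bases before the start of AFP at 73431138-73456174, and AFM, the afamin gene of the same family, follows 25509 bases after AFP. GC, the fourth member of the family, lies at 71741693-71804041 on the minus strand of the same chromosome. AFM had 2 UMIs in 1 of the 50 cells. Promoter sequence before the RefSeq start sites (GRCh38.p14) was searched on both strands for GTTAATNAT, the left part of the motif of HNF1 factors, which bind the albumin promoter in liver. Of 35116 promoters, 0.723% held it within 250 bases before the start. Among 24 genes picked for this search, 20 had such a window, and ALB, AFP, FGA and HABP2 held the match. The stretches are shown for the neighbours ALB and AFP, found together in 36 cells, and for FGA, a fibrinogen gene that also has the match but gave no UMI in these cells. Capitals mark the match; each stretch begins 150 bases before the start and stops ahead of any annotated exon.
ALB, chr4:73404137-73404238, plus strand: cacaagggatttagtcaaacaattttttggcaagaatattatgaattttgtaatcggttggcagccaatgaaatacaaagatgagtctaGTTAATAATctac
AFP, chr4:73436071-73436162, plus strand: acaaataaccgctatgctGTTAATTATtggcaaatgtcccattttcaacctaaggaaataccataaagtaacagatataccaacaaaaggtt
FGA, chr4:154590767-154590892, minus strand: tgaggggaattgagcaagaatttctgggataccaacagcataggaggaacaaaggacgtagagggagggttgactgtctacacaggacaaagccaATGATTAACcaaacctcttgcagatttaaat
The match begins 61 bases before the start in ALB and 132 in AFP, and in FGA it lies on the opposite strand. It was 1 of 11 spellings searched for HNF1, forkhead, HNF4 and C/EBP factors. Of the forkhead spellings, TGTTTAC (2.98% of promoters) was held by APOA2 and TATTTAC (2.39%) by ALB, FGB, ID2 and GCG. The C/EBP spelling TTGCNNAA (9.05% of promoters) was held by ALB, AFP, VTN and 6 others of these genes. The match is a description of letters and shows no binding.

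The ALB cells were close in depth to the other kept barcodes of their library. Their median total was 16679, 20324.5 and 12228 UMIs in replicates 1, 2 and 3, against 15317, 20734.5 and 10216 in the 4673 barcodes with no ALB UMI, called ALB-zero cells. Their median mitochondrial share was 15.8, 15.1 and 18.9%, and 15 of the 50 lay above 20%. The doublet caller Scrublet marked 11, 7 and 12 kept barcodes, none of them an ALB cell, although the highest ALB cell also had 52317 UMIs. Libraries shared at most 4 barcode sequences, none an ALB cell. As a check on free RNA, barcodes with 5 or more UMIs of COL1A1, a fibroblast collagen that marks cells expected to lack albumin, were counted. None of the 9, 9 and 77 such barcodes held an ALB UMI, which allows shares of up to 33.3, 33.3 and 3.90%, against 3.24, 3.27 and 2.54% of the other kept barcodes with at least 1. Their median depths were 16431, 10734 and 9299 UMIs against 15344, 20966 and 10242, so at this number of barcodes a lower share was not detectable.

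Markers of the cells were checked next. CHGA, the secretory granule protein of endocrine cells, reached 5 or more UMIs in 49 of the 50 cells, and 47 held IRX2, a transcription factor of alpha cells. AFP was found in 36 cells, AMBP in 12, both in 10, and neither in 12. AMBP UMIs were found in 5 ALB cells of replicate 1, 5 of replicate 2 and 2 of replicate 3. SERPINA1 was present in all 50, GC in 49 and VTN, the plasma adhesion protein vitronectin, in 42. Of the apolipoproteins, APOA1 was found in 41 cells, APOC3 in 35 and APOB in 33. Several other plasma proteins that hepatocytes make in bulk were at or near 0. FGA and FGG, which code for fibrinogen chains, TF, the iron carrier transferrin, HP, the haemoglobin binder haptoglobin, and SERPINC1, antithrombin, gave 0 UMIs in the 50 cells. FGB gave 2 UMIs, and AHSG (fetuin-A) and ITIH2 gave 1 each. CYP3A4, the main drug-oxidising enzyme of adult liver, gave none. The data therefore hold albumin, AFP and AMBP transcripts in cells with an endocrine transcript set, and the label "ALB-expressing cells" is kept in that sense.

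To ask how far the 3 programmes met in 1 cell, panels of 10 genes were used for each. The hepatic panel held AMBP, FGA, FGB, FGG, AHSG, APOA2, APOH, VTN, ITIH2 and TF. The enterochromaffin panel held TPH1, FEV, LMX1A, SLC18A1, DDC, GCH1, ADRA2A, TRPA1, TAC1 and SLC38A11. Among the genes of the alpha panel were IRX1, IRX2, LOXL4, TM4SF4, FAP, PTGER3, RGS4, PLCE1 and CRYBA2. A cell was counted for a panel with at least 1 UMI of at least 3 of its genes. The hepatic panel was met by 20 of 50 ALB cells (41.3% ± 5.09, n = 3 libraries), the enterochromaffin panel by 27 (58.8% ± 17.7) and the alpha panel by 49 (98.7% ± 2.31). All 3 panels were met by 14 cells (30.8% ± 10.8). Every cell that met the hepatic panel met the alpha panel, but this was nearly fixed in advance, since 49 of 50 cells met the alpha panel. In ALB-zero cells, 496 of the 503 that met the hepatic panel met the alpha panel too. In ALB-zero cells the shares were 12.2% ± 7.79 hepatic, 52.9% ± 15.9 enterochromaffin, 90.8% ± 3.96 alpha and 8.61% ± 6.74 for all 3. These shares were not tested: paired over 3 libraries, an exact two-sided permutation test cannot give a p below 0.25.

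The shares depended on depth. With each cell thinned to 5000 UMIs, which left out 2 ALB cells and 496 ALB-zero cells, the hepatic panel was met by 6 of 48 ALB cells (12.5% ± 2.72) against 1.89% ± 0.967 of ALB-zero cells. The libraries did not overlap: 15.4, 10 and 12% against 2.84, 1.92 and 0.910%. The enterochromaffin panel was met by 10 of 48 (23.0% ± 7.0) against 15.98% ± 1.56, and the alpha panel by 39 (81.5% ± 2.66) against 86.8% ± 2.94. All 3 were met by 1 of 48 cells (1.33% ± 2.31) against 0.324% ± 0.291. A cell with all 3 panels was rare in both groups at matched depth. Among other groups thinned alike, 83.1% ± 4.00 of cells with TPH1 met the enterochromaffin panel and 1.23% ± 1.59 the hepatic one. AFP cells without ALB met the hepatic panel in 4.53% ± 0.528 after thinning and in 26.7% ± 8.23 at full depth, where 16.2% ± 11.3 met all 3. The enterochromaffin share of ALB cells rested on few genes: FEV was found in 33 cells and DDC in 43, GCH1, which makes a cofactor of TPH1, in 31, TPH1 in 10, SLC38A11 in 5, SLC18A1 in 1, and LMX1A, ADRA2A, TRPA1 and TAC1 in none. The hepatic share rested chiefly on VTN and APOH, each found in 42 cells, with AMBP in 12 and APOA2 in 11.

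**Figure D2:**
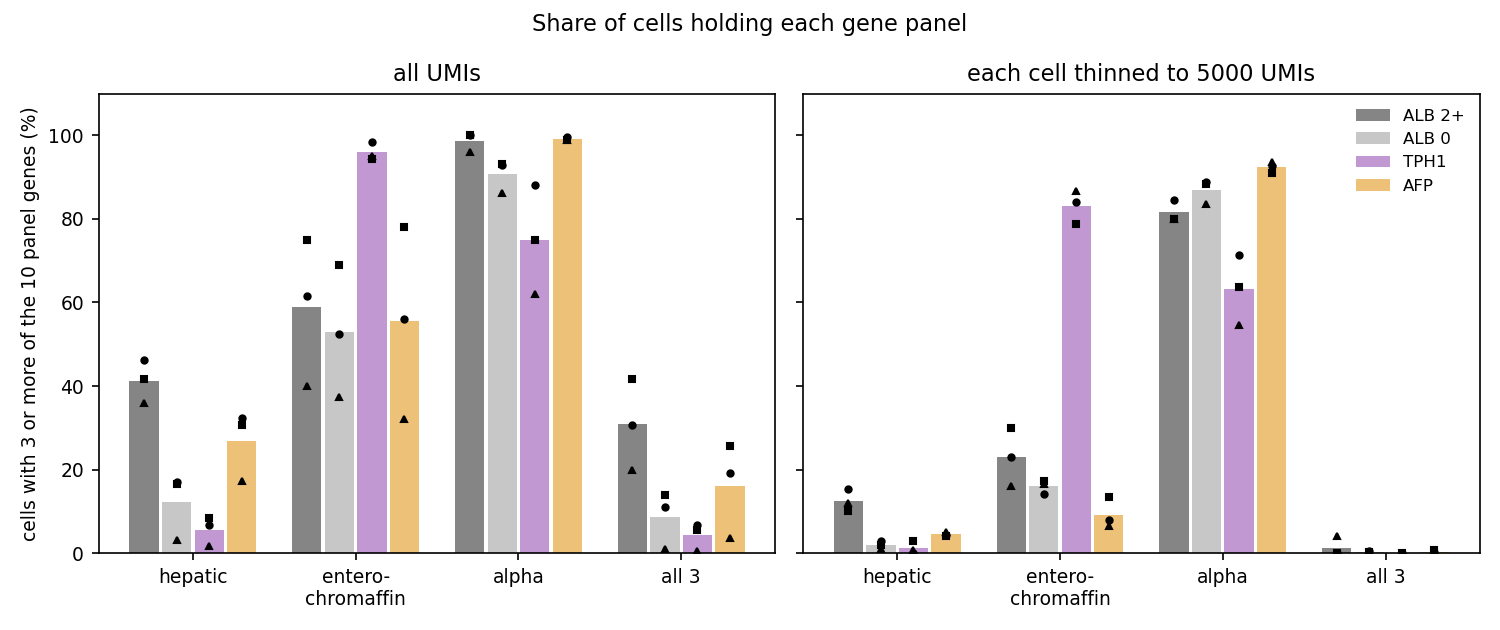
Share of cells (vertical, percent) with 3 or more of 10 hepatic, enterochromaffin or alpha genes, or with all 3 panels, in ALB cells, ALB-zero cells, TPH1 cells without ALB and AFP cells without ALB, at full depth (left) and thinned to 5000 UMIs (right). Bars are means of 3 libraries and circles, squares and triangles are replicates 1, 2 and 3; thinning took the hepatic share of ALB cells from 41.3 to 12.5% and that of ALB-zero cells from 12.2 to 1.89%.

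AFP was found in 36 of 50 ALB cells against 1052 of 4673 ALB-zero cells, and after thinning in 53.3% ± 3.04 against 16.2% ± 9.53. AMBP was found in 12 against 227 cells, and after thinning in 19.6% ± 11.4 against 1.96% ± 0.797. The thinned shares of both genes were higher in the ALB cells of every library. FEV was found in 33 against 3200 cells, and after thinning in 42.1% ± 20.3 against 45.2% ± 5.80. TPH1 was found in 10 against 439 cells, and after thinning in 9.23% ± 10.1 against 5.86% ± 2.94. In COL1A1 barcodes the thinned shares were 0% for AFP and TPH1, 0.476% for AMBP and 1.43% for FEV. IRX2 was found after thinning in 75.5% ± 7.92 of ALB cells and 78.0% ± 4.31 of ALB-zero cells. Its share was 60.2% ± 17.7 in TPH1 cells without ALB and 23.8% ± 8.91 in COL1A1 barcodes, so IRX2 UMIs were not limited to alpha cells.

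The ALB cells fell into a glucagon-poor and a glucagon-rich part, split here at 10000 CPM of GCG after the values were seen. The glucagon-poor part had 28 cells (5, 8 and 15 by library) at a summed GCG level of 1820 ± 117 CPM, and the glucagon-rich part 22 cells (8, 4 and 10) at 94996 ± 38567 CPM. COL1A1 barcodes had median GCG levels of 1056, 814 and 725 CPM, near those of the poor part. The split was not sharp, since 5 cells lay between 5000 and 20000 CPM. The glucagon-poor share was 55.04% ± 14.7 in ALB cells, 15.5% ± 7.30 in ALB-zero cells and 16.7% ± 17.6 in barcodes with 1 ALB UMI. Seen from the other side, 2.99, 8.70 and 4.42% of glucagon-poor endocrine barcodes (5 or more CHGA UMIs) were ALB cells, 27 of 576 in all. Among glucagon-rich endocrine barcodes the shares were 0.662, 0.375 and 0.631%, 22 of 3861. The lowest share of the first kind lay above the highest of the second.

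Both parts held hepatic transcripts, but in different measure. AFP was higher in the glucagon-rich cells of each library: summed levels were 1731, 1354 and 639.6 CPM there and 649.5, 304 and 138 CPM in the poor cells. GC was higher in the poor cells of each library, with 5993, 2354 and 2883 CPM in the poor cells against 2503, 179.9 and 1521 CPM in the rich ones. The libraries of VTN lay at 635, 1229 and 419 CPM in the poor cells against 526, 303 and 149 CPM. AMBP followed single cells, at 207, 379.7 and 4.94 CPM in the poor cells against 125, 9.47 and 24.8 CPM. These values are descriptions with no test.

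Serotonin genes were at higher levels in the glucagon-poor cells, with no test. TPH1 was found in 9 of 28 poor cells and 1 of 22 rich ones, FEV in 20 and 13, and DDC in 23 and 20. All 5 ALB cells with 2 or more TPH1 UMIs were glucagon-poor, and 4 of them also held AFP. FEV stood at 472, 269 and 93.6 CPM in the poor cells and at 67.5, 75.7 and 55.9 CPM in the rich ones. DDC stood at 546, 449 and 173 CPM against 154, 151 and 62.1 CPM. LOXL4, an extracellular matrix enzyme typical of alpha cells, was in 0 of 28 and in 8 of 22. The ALB cell with the most TPH1, in replicate 3, held transcripts of all 3 kinds: it had 10055 UMIs, of which 8 were ALB, 1 AFP, 1 AMBP, 52 GC, 14 TPH1, 9 FEV, 10 IRX2 and 10 GCG. Its GCG level of 995 CPM lay within the levels of COL1A1 barcodes of that library (median 725, upper quartile 1121 CPM), and AFP and AMBP rested on 1 UMI each. The part of free RNA in these counts was not tested. The cell with the most ALB, in replicate 1, had 441 ALB, 172 AFP, 24 AMBP, 369 GC and 4674 GCG UMIs, 5 of FEV and none of TPH1.

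**Figure D3:**
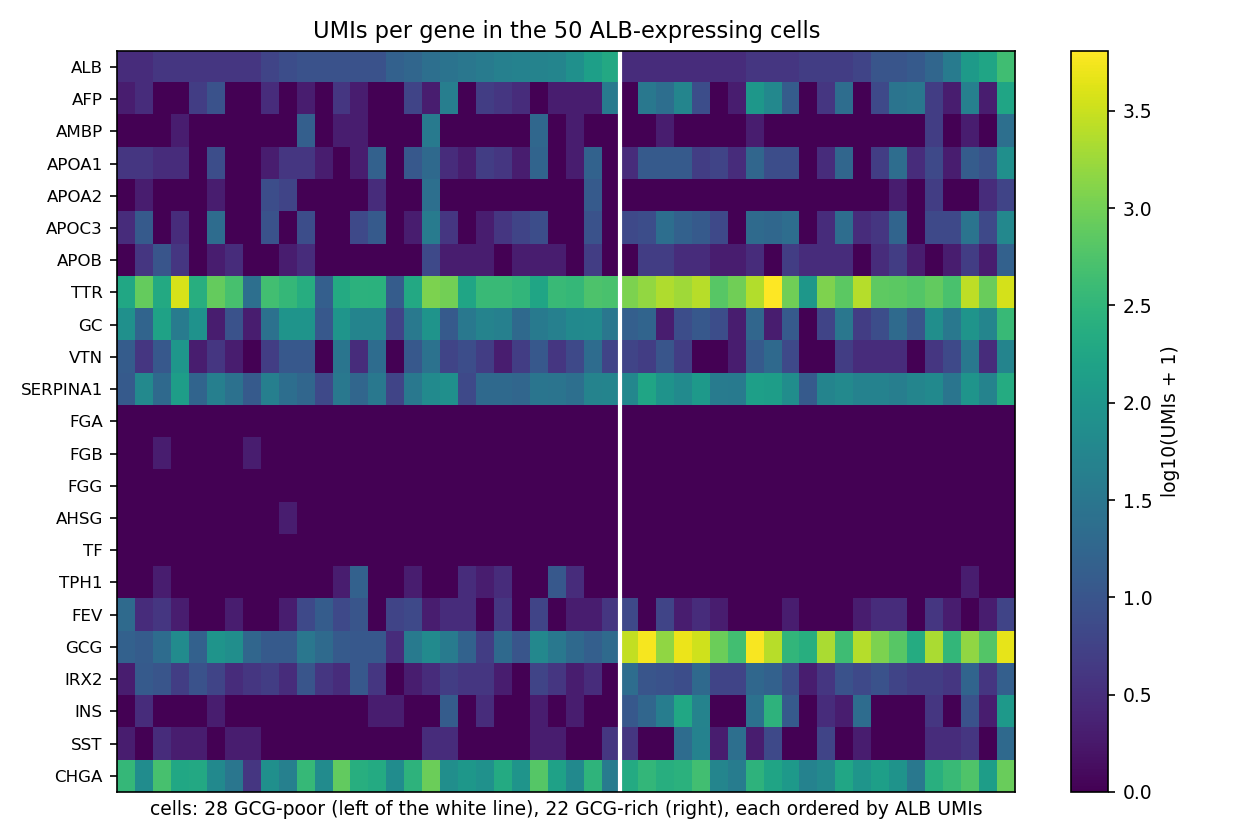
UMIs of selected hepatic, alpha, enterochromaffin and hormone genes (rows) in each of the 50 ALB cells (columns), coloured as log10(UMIs + 1), with 28 glucagon-poor cells left of the white line and 22 glucagon-rich cells right of it, each ordered by ALB. GC is present across both parts, TPH1 at 2 or more UMIs only in 5 cells on the left, and FGA, FGG and TF are at 0 throughout.

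Against ALB-zero cells of the same libraries, some genes of plasma proteins were higher in ALB cells, among them AFP, AMBP, GC, VTN and APOA1, while most of those tested did not pass. GCG, SST, INS, GHRL and IAPP were lower, and no serotonin gene passed as higher. Counts were summed per library and cell group and tested with edgeR's quasi-likelihood test, with the library as a block and Benjamini-Hochberg adjustment over 13954 genes at a threshold of 0.05. Of these, 408 (2.92%) were called, 195 genes (1.4%) higher and 213 (1.53%) lower. In the list of albumin relatives and plasma carriers, 2 of 6 tested genes rose, AFP and AMBP, with a list median log2 fold change of 0.70 against -0.10 over all genes. AFP stood at 1465, 747 and 359.9 CPM in the ALB cells of replicates 1, 2 and 3 and at 117, 165 and 31.4 CPM in ALB-zero cells, a log2 fold change of 2.97 (SE 0.14, adjusted p = 4.3e-94). AMBP stood at 145, 224 and 13.7 CPM against 9.23, 4.30 and 2.78 CPM, 4.22 higher on the log2 scale (SE 0.30, adjusted p = 2.0e-40). For both genes the lowest library of the ALB cells lay above the highest of the ALB-zero cells. The AMBP sums came from few cells, however: 1 cell held 24 UMIs in replicate 1 and 1 held 35 in replicate 2. In replicate 3, the lowest, 2 cells held all AMBP UMIs, 4 and 1. The AFP call ended without the library as a block.

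GC and VTN rose as well. GC stood at 3362, 1437 and 2281 CPM against 918, 569 and 601 CPM, a log2 fold change of 1.57 (SE 0.13, adjusted p = 7.1e-32), and the libraries of the groups did not overlap; this call held under every alternative that was run. TTR, the other protein shared by alpha cells and liver, stood at 60004, 75754 and 38097 CPM against 66950, 67060 and 61006 CPM, with overlapping ranges. VTN stood at 552, 838 and 299 CPM against 254, 182 and 84.2 CPM (log2 1.57, SE 0.14, adjusted p = 3.8e-27). Among coagulation genes 2 of 10 tested rose, VTN and F5, which codes for factor V (7.27, 43.9 and 46.7 CPM against 3.65, 2.19 and 4.56 CPM). Of 8 tested apolipoprotein genes 2 rose: APOA1, the main protein of high-density lipoprotein (491, 323 and 343 CPM against 178, 206 and 115 CPM, log2 1.10, SE 0.14, adjusted p = 2.0e-12), and APOA2, which was found in 11 cells. Only 1 of these was in replicate 1 (5 APOA2 UMIs) and 1 in replicate 2 (24), and the others were in replicate 3. Of 6 tested plasma protease inhibitors 1 rose, with a list median of -0.29. APOH, another apolipoprotein gene, stood at 149, 144 and 132 CPM against 137, 147 and 141 CPM and did not pass the test.

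Regulators and enzymes of liver moved in part. Of 16 tested hepatic transcription factors 5 passed, all higher: NR0B2, a repressor of bile acid synthesis, PROX1, GATA6, ONECUT2 and CEBPB. NR0B2 stood at 29.1, 116 and 49.5 CPM against 25.1, 34.04 and 20.02 CPM (log2 1.09, SE 0.26, adjusted p = 0.0016). In GATA6, 1 cell gave 60% of the UMIs. HNF4A, a master regulator of hepatocytes that is also active in islets, stood at 40.0, 47.9 and 30.2 CPM against 27.5, 29.6 and 26.3 CPM and was not called. Of 12 tested genes of hepatic metabolism 3 rose: ADH1A, an alcohol dehydrogenase (40.0, 15.97 and 98.9 CPM against 4.18, 0.648 and 4.70 CPM), ASS1 of the urea cycle and CYP3A5. Hepatoblast genes gave 3 of 8, PEG10, DLK1 and GPC3; PEG10, a retrotransposon-derived gene, stood at 291, 511 and 1404 CPM against 145, 181 and 306 CPM. None of 2 tested complement genes and none of 6 tested bile duct genes passed. Without replicate 3 the calls of NR0B2 (adjusted p = 0.082), GATA6 (0.94), ONECUT2 (0.98), CEBPB (0.11), ASS1 (0.17) and GPC3 (0.15) ended; CEBPB, ASS1 and GPC3 ended without replicate 1 as well, and NR0B2, CEBPB and GPC3 without replicate 2.

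**Figure D4:**
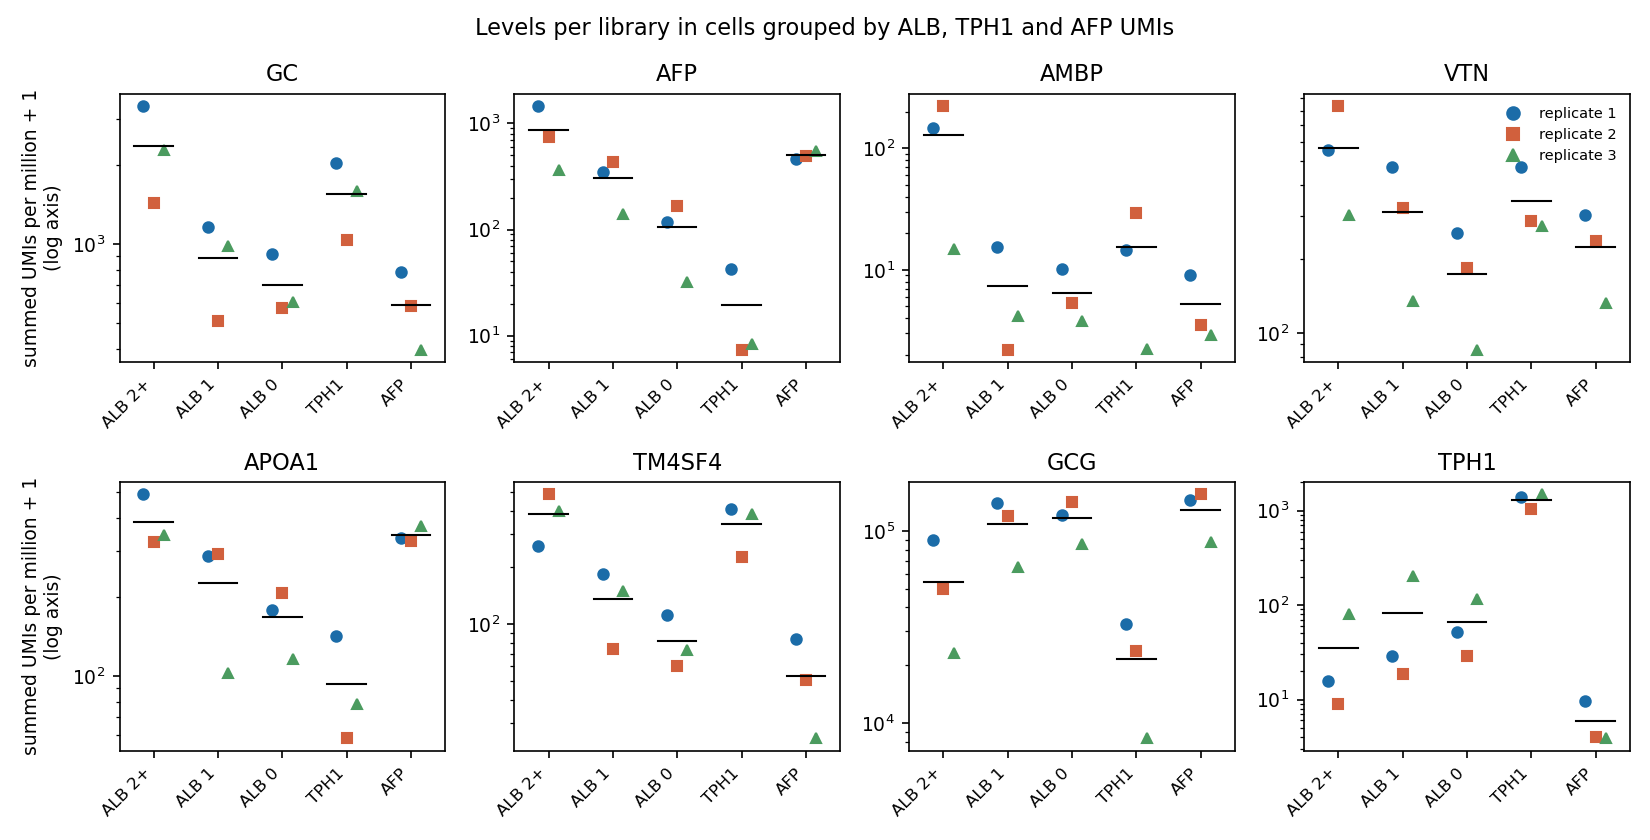
Summed level in CPM plus 1 (vertical, log axis) of 8 genes in cells with 2 or more ALB UMIs, 1 ALB UMI, no ALB UMI, TPH1 without ALB and AFP without ALB; 1 marker per library and a black line at the mean. GC in ALB cells lies between 1437 and 3362 CPM, above all 3 ALB-zero values, and GCG lies at 23287 to 89585 CPM against 85789.5 to 141732 CPM.

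Endocrine genes of the ALB cells were lower in part. GCG stood at 89585, 50152 and 23287 CPM against 121253, 141732 and 85789.5 CPM, a log2 fold change of -1.43 (SE 0.13, adjusted p = 5.1e-26), and the ranges overlapped. SST, somatostatin, stood at 116, 323 and 104 CPM against 1629, 4057 and 1329.9 CPM (log2 -3.86, SE 0.16, adjusted p = 8.7e-128), with no overlap. INS, insulin, stood at 752, 2256 and 65.9 CPM against 2101, 2832 and 724 CPM (log2 -1.60, SE 0.14, adjusted p = 8.7e-28). After thinning, SST was found in 19.2% ± 11.2 of ALB cells against 43.6% ± 12.2 of ALB-zero cells. For INS the shares were 36.6% ± 19.1 against 66.6% ± 22.3. Few hormone-rich cells can carry a sum, and the part of such cells in the reference was not tested. Ghrelin (GHRL) and amylin (IAPP) fell too. Of 16 alpha cell genes 5 fell, among them GCG and SLC7A2, and also IRX1 and PCSK2, whose calls ended without replicate 3 (adjusted p = 0.30 and 0.36; for IRX1 also without replicate 2, 0.62), and 1 rose, TM4SF4, a membrane protein found in alpha cells and liver, at 258, 487 and 398 CPM against 111, 59.4 and 72.5 CPM (log2 2.12, SE 0.14, adjusted p = 3.0e-45). Of 16 pan-endocrine genes 7 fell and 1 rose. ISL1, an early islet transcription factor, stood at 124, 104 and 90.7 CPM against 229, 235 and 180.5 CPM (log2 -1.16, SE 0.17, adjusted p = 3.5e-09). The GCG call ended without the library as a block.

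Of 9 tested enterochromaffin genes none rose and 2 fell, TPH1 and PCSK1, with a list median of -0.49. TPH1 stood at 14.5, 7.98 and 79.7 CPM against 51.4, 28.1 and 114 CPM (log2 -1.05, SE 0.26, adjusted p = 0.0028), and its call ended without replicate 1 (adjusted p = 0.16). FEV stood at 167, 188 and 76.9 CPM against 134, 165 and 136 CPM and DDC at 251, 323 and 124 CPM against 151, 151 and 156 CPM; neither passed (adjusted p = 0.69 and 0.20). In both the highest library was replicate 2 and the lowest replicate 3.

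Among markers of other cells, 5 of 7 tested mesenchyme genes, 5 of 8 proliferation genes and 3 of 6 neural genes were lower; the reference included 95 barcodes with 5 or more COL1A1 UMIs, and the ALB cells none. Without them and CHGA-poor barcodes the calls of COL1A1 and LUM ended. COL1A2, COL3A1 and LUM gave 0 UMIs in ALB cells. The acinar genes PRSS1 and PRSS2, trypsinogens, were called higher, as was LYZ, lysozyme, but 98% of the UMIs of each came from 1 cell of replicate 3. That cell had 47075 UMIs, 3 of ALB, 3 of CHGA and 33 of KRT8, an epithelial keratin, and was the only ALB cell with under 5 CHGA UMIs. Without barcodes rich in COL1A1 or poor in CHGA, the log2 fold change of PRSS1 was -0.04 and that of LYZ -1.03. FABP1, the fatty acid binder of liver and gut, had 74% of its UMIs in 1 cell, and its call ended without replicate 1 (adjusted p = 0.83). In the stress lists, 1 of 10 immediate early and heat shock genes rose, HSPA1A, whose call ended without replicate 2 (adjusted p = 0.43) and without replicate 3 (0.20), and none of 10 genes of the unfolded protein response passed.

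Since glucagon-poor cells were more frequent among ALB cells, the comparison was repeated within each kind of endocrine barcode, an alternative chosen after the data were seen. Within glucagon-poor barcodes (5, 8 and 14 ALB cells against 160, 82 and 293 ALB-zero cells), 43 of 8435 genes (0.51%) were higher and 35 (0.415%) lower by the same edgeR test. Within glucagon-rich barcodes only replicates 1 and 3 had enough cells (8 and 10 against 1169 and 1560), and 30 of 13193 genes (0.227%) were higher and 12 (0.091%) lower. Median depths of ALB and ALB-zero cells were 12780 against 12381.5, 19375 against 15781.5 and 10853 against 8390 UMIs in glucagon-poor barcodes. In glucagon-rich ones they were 23997 against 15944 and 15900 against 10558.5 UMIs, and the part of depth in the differences was not tested. AFP, AMBP, GC, VTN, APOA1, TM4SF4 and ADH1A were higher in both. AMBP rested on few cells: 1 cell held 24 of 26 UMIs in the glucagon-rich ALB cells of replicate 1 and 1 held all 4 in replicate 3, and in the poor cells 1 held 13 of 14 in replicate 1. AFP stood at 649.5, 304 and 179.7 CPM against 43.7, 40.5 and 22.9 CPM in glucagon-poor barcodes (log2 3.29, SE 0.26, adjusted p = 2.3e-10) and at 1731 and 639.6 CPM against 129 and 36.1 CPM in glucagon-rich ones (log2 3.77, SE 0.15). GC stood at 5993, 2354 and 3748 CPM against 2035.5, 962 and 1462 CPM (log2 1.42, SE 0.17, adjusted p = 2.3e-06) and at 2503 and 1521 CPM against 833 and 541 CPM (log2 1.40, SE 0.14). No library of the ALB cells in these fits reached down to the ALB-zero values in either case. Replicate 2, left out of the glucagon-rich fit, lay the other way for GC, though not for AFP. Its 4 glucagon-rich ALB cells stood at 179.9 CPM of GC, against 569 CPM in all its ALB-zero cells. ID3, an inhibitor of helix-loop-helix factors, was higher in both as well (log2 1.92, SE 0.22, and 1.76, SE 0.21).

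Other differences were called in 1 of the 2 kinds, and the difference between kinds was not tested. TPH1 was lower in glucagon-poor ALB cells, at 44.3, 13.8 and 186 CPM against 443, 459 and 908 CPM (log2 -2.95, SE 0.32, adjusted p = 3.7e-07), with no overlap. The non-coding RNA gene MIAT, SOX2 and PCSK1, the last coding for a prohormone convertase, were lower there too, with 3, 2 and 1 UMIs in the ALB cells. FEV (-0.40, SE 0.29) and DDC (-0.49, SE 0.23) did not pass there. PEG10 was higher in glucagon-rich ALB cells, at 231.5 and 1428 CPM against 90.1 and 96.6 CPM (log2 2.75, SE 0.16), and stood at 472, 849 and 1803 CPM against 639, 694 and 1594 CPM in glucagon-poor ones (log2 0.08, SE 0.20). SST and INS were lower in both kinds by these fits: SST by a log2 fold change of -7.70 (SE 0.33) and -3.13 (SE 0.20). Replicate 2 was outside the glucagon-rich fit. Its glucagon-rich ALB cells stood at 5329 CPM of INS, against 2832 CPM in all its ALB-zero cells, while SST was lower there as well. The part of hormone-rich ALB-zero cells in these falls was not tested. ISL1 fell in glucagon-poor cells (-2.68, SE 0.43) and stood at 159 and 186 CPM against 243 and 214 CPM in glucagon-rich ones.

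**Figure D5:**
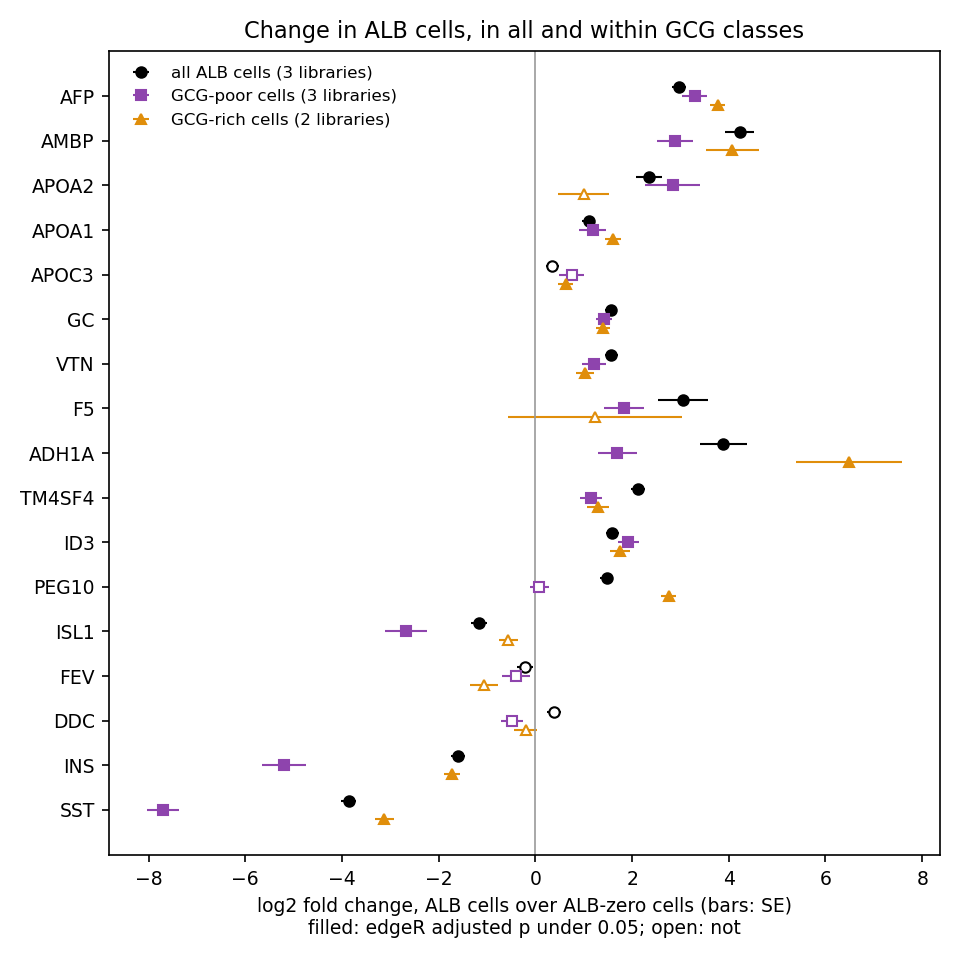
Log2 fold change of ALB cells over ALB-zero cells (horizontal; bars are SE) for named genes in all cells, within glucagon-poor and within glucagon-rich endocrine barcodes; filled markers have an edgeR adjusted p under 0.05. AFP and GC lie to the right of 0 in each, at 3.29 and 3.77 and at 1.42 and 1.40 within the 2 kinds. The glucagon-rich fit holds replicates 1 and 3 only.

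Cells with 2 or more TPH1 UMIs and no ALB UMI (59, 36 and 179) are the enterochromaffin-like cells of these cultures, and 87.5% ± 6.91 of them were glucagon-poor. Against them ALB cells had more of several plasma protein genes and of 7 of 14 tested alpha cell genes, and less of most serotonin genes. Of 6722 tested genes, 271 (4.03%) were called by edgeR, 145 (2.16%) higher and 126 (1.87%) lower. Of 7 tested enterochromaffin genes, TPH1 left out, 6 fell and none rose. SLC18A1, the vesicle transporter that stores serotonin, stood at 3.63, 0 and 0 CPM against 44.3, 60.2 and 51.2 CPM (log2 -5.12, SE 0.69, adjusted p = 0.0014). DDC stood at 251, 323 and 124 CPM against 906, 915 and 669 CPM (log2 -1.70, SE 0.18, adjusted p = 0.00025), and FEV at 167, 188 and 76.9 CPM against 396, 395 and 566 CPM (log2 -1.50, SE 0.28, adjusted p = 0.01). The groups did not overlap for any of these, but the FEV call ended without replicate 1 (adjusted p = 0.075). FEV and DDC were thus present in ALB cells at levels below those of TPH1 cells. PCSK1, SLC38A11, an amino acid transporter, and MNX1, a homeobox factor, fell as well; the MNX1 call ended without replicate 2 (adjusted p = 0.058) and without replicate 3 (0.10). Outside the list MIAT, SOX2, AGR2 and NKX6-1 were lower, and CTGF and MS4A8 gave 0 UMIs in ALB cells against 175, 28.5 and 149 CPM and 92.3, 25.4 and 51.2 CPM.

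Several plasma protein genes were higher than in TPH1 cells. Of 6 tested apolipoprotein genes 4 rose, APOC3, APOA1, APOB and APOH. APOC3, an inhibitor of lipoprotein lipase, stood at 494, 455 and 439.6 CPM against 83.7, 68.2 and 94.3 CPM (log2 2.68, SE 0.17, adjusted p = 4.2e-06). AFP stood at 41.9, 6.34 and 7.40 CPM in TPH1 cells (log2 5.77, SE 0.24, adjusted p = 9.5e-08). SERPINA1 and TTR rose by 1.67 (SE 0.11) and 1.65 (SE 0.14), and AGT, angiotensinogen, and CLU, clusterin, by 2.44 (SE 0.25) and 2.22 (SE 0.17). GC was nearer: 3362, 1437 and 2281 CPM against 2030.4, 1034 and 1593 CPM (log2 0.78, SE 0.12, adjusted p = 0.0028), the ranges overlapped, and the call ended without replicate 1 (adjusted p = 0.064). VTN (log2 0.84, SE 0.24) and TM4SF4 (0.37, SE 0.25) did not pass. Of 14 tested alpha cell genes 7 rose and 1 fell, KCTD12. Of 6 tested hepatoblast genes 1 rose, CDH1, and 1 fell, PEG10. Both calls ended without replicate 1 (edgeR adjusted p = 0.15 for each), and that of CDH1 also without replicate 3 (0.071). MALAT1, an abundant nuclear RNA, stood at 22158, 19730 and 28480 CPM in ALB cells and 46890, 34316 and 39355 CPM in TPH1 cells; its part in these differences was not tested. With ALB cells of 5 or more UMIs the direction of GCG and LOXL4 turned.

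Cells with 2 or more AFP UMIs and no ALB UMI (260, 297 and 81) were nearly all glucagon-rich, with 3.52% ± 2.36 poor. Of 7266 genes tested against them, edgeR called 229 (3.15%), 144 (1.98%) higher in ALB cells and 85 (1.17%) lower. Most apolipoprotein and inhibitor genes were not higher than in AFP cells: of 8 tested apolipoprotein genes 1 rose (APOA2) and 2 fell (APOC1 and APOC3), and SERPINA1, SPINK1 and TTR fell as well. The last 3 falls ended without replicate 1 (adjusted p = 0.15, 0.063 and 0.37) and without replicate 3 (0.32, 0.13 and 0.80). The APOC3 call ended without replicates 1 and 3 (adjusted p = 0.25 and 0.56), the APOA2 call without replicates 2 and 3 (0.42 and 0.81), and the APOC1 call without any 1 of the 3 (0.46, 0.22 and 0.15). APOC3 stood at 494, 455 and 439.6 CPM against 513, 572 and 612 CPM. GC was the plasma protein gene with the clearest rise, from 784, 581 and 395 CPM in AFP cells (log2 1.80, SE 0.14, adjusted p = 7.7e-15). VTN rose from 302, 236 and 131 CPM (log2 1.13, SE 0.15, adjusted p = 1.2e-07). ADH1A gave 1.29, 0 and 0 CPM in AFP cells against 40.0, 15.97 and 98.9 CPM (log2 5.79, SE 0.59). GPC3, DLK1 and PEG10 of the hepatoblast list were higher too, and the DLK1 call ended without replicate 1 (adjusted p = 0.19). PEG10 was, however, called lower in ALB cells than in TPH1 cells. Of 11 tested hepatic transcription factors 3 rose, PROX1, ONECUT2 and CEBPB. PROX1 and CEBPB each lost the call with any 1 library left out, and ONECUT2 without replicate 1 (adjusted p = 0.22) or replicate 3 (0.84). The comparisons with TPH1 cells and with AFP cells share the ALB cells.

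Other genes, outside the plasma proteins, separated ALB cells from AFP cells. PEG10 stood at 291, 511 and 1404 CPM against 77.6, 114 and 72.7 CPM (log2 2.57, SE 0.21, adjusted p = 5.7e-14), and TM4SF4 rose from 82.4, 49.8 and 23.9 CPM (log2 2.68, SE 0.20). ID3, EFNA5, an ephrin ligand, MEIS2 and ADCYAP1, a neuropeptide gene, were higher too, and none of these calls ended under an alternative. No alternative of this comparison was run within a glucagon class. The glucagon-poor share was 55.04% ± 14.7 in ALB cells and 3.52% ± 2.36 in AFP cells, and its part in these differences was not tested. Against ALB-zero cells, PEG10 was not called within glucagon-poor barcodes. On the serotonin side DDC rose, from 104.7, 121 and 97.6 CPM (log2 0.90, SE 0.17, adjusted p = 0.00022, or 0.36 without replicate 1), while FEV did not pass (log2 0.28, SE 0.17). SST fell by 3.44 on the log2 scale (SE 0.15), ISL1 by 1.29 (SE 0.17) and GCG by 1.59 (SE 0.11). The fall of GCG ended with ALB cells of 5 or more UMIs, without replicate 3 (adjusted p = 0.079), under DESeq2 and without the library as a block.

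The level of ALB itself went with other genes as follows, over barcodes with 0, 1, 2 to 4, 5 to 19 and 20 or more ALB UMIs; ALB chose the cells, so this is a description. GC stood at 696, 885, 1285, 3081 and 3367 CPM (means of 3 libraries; SD 193, 335, 1038, 637 and 1268). GCG stood at 116258, 108214, 81685, 38302 and 22177 CPM, with SDs from 28304 to 50586 CPM. AMBP was at 5.44, 6.29 and 7.78 CPM up to 4 ALB UMIs and at 124 ± 148 and 318 ± 372 CPM above. AFP had no such order: 104, 306, 851, 355 and 961 CPM. CHGA stood at 9776 CPM at 2 to 4 UMIs and 16263 CPM at 20 or more. Cells of 2 to 4 UMIs thus lay near those with 1 UMI in GC, GCG and AMBP, within 1 SD. The GC mean of cells with 5 to 19 UMIs lay above that range. The 10 genes most like ALB by Pearson correlation of log2(CPM + 10) over 15 points (3 libraries by 5 bands, 6194 candidate genes) were EFNA5 (0.895), TGOLN2 (0.887), ROBO1, ONECUT3, ID1, PDZK1, OLFM3, HABP2, RAB27A and FXYD3 (0.830). HABP2 codes for a plasma protease made in liver; it stood at 389 CPM in the highest band and 55.5 CPM without ALB. The points share libraries, and the highest bands hold few cells.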

How the data were processed

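Gene expression was measured per cell in 3 libraries of 1 group. The deposited values are whole UMI counts for each gene in each barcode, not normalized; the authors made them with Cell Ranger 4.0.0 against GRCh38, per the submitters' processing notes. For the gene annotation and the calling of cells, settings were not given in the sources used. The matrices held 2850, 2576 and 4257 barcodes with 30139788, 31122791 and 30980799 UMIs; the gene minimum left out 951, 1236 and 1799 of them, and the limit on mitochondrial UMIs 441, 108 and 336 more. Of 33538 features, 33427 matched GENCODE 29 by identifier, and 48 share a symbol.

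Counts were summed per library and cell group where both groups had 10 or more barcodes, and tested with edgeR 4.0.16 in R 4.3.3 (TMM factors, filterByExpr, quasi-likelihood F test, library as a block, Benjamini-Hochberg adjustment). The block pairs cell groups of the same library, so the pairing comes from the design. ALB was left out of the fit's results, as were TPH1 and AFP where they chose the cells. The script was tested on simulated data. CPM values in the text are plain, without TMM factors; on that scale the median log2 ratio of all genes was 0.12, -0.20 and 0.19 in the 3 comparisons, so levels and fitted fold changes differ by about that shift. Reads of paralogous or overlapping genes may be split by the counting.

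The cells, panels, 26 gene lists (286 genes, 285 found) and named genes were chosen with earlier results of these data known, and support nothing by themselves. Named were panel genes, hormones, up to 4 called genes per list and up to 8 per direction outside the lists with 50 CPM or more and a log2 fold change of at least 1. HABP2 and 9 others were named by likeness to ALB. CHGA, COL1A1, KRT8, HNF4A, HP, SERPINC1, CYP3A4, CYP3A5, KCTD12 and MALAT1 lie outside that rule in at least 1 place where they are named; these were picked with their values already seen. Intervals and limits of 3 counts at 0 cover counting error only. Doublets were scored with Scrublet in scanpy 1.11.5, and none was removed in the main analysis. Alternatives were DESeq2 1.42.0, other scaling and filters, no block, each library left out, other cell limits, thinning and matched depth. Results for some genes are not reported here.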

Additional observations from a re-analysis of the deposited data

Results flagged for a closer look

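Among the barcodes left out for more than 30% mitochondrial UMIs, which no comparison uses, 5 of 441 in replicate 1 held 2 or more ALB UMIs (1.13%, exact Clopper-Pearson 95% interval 0.369 to 2.63%, highest 16 UMIs). The share lies above the 0.680% that a count of 0 would allow. Its interval also covers the 0.892% of ALB cells among the kept barcodes of replicate 1. In replicate 2 the number was 0 of 108 and in replicate 3 it was 2 of 336, below the share that a count of 0 would allow there. Their median depth was 6658, 8882 and 5860.5 UMIs.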

How the results depend on the processing

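Plain limits come first. The 50 ALB cells are few, a single cell can carry a gene's sum in a library, and depth limits what a cell shows: with each cell thinned to 5000 UMIs fewer genes were called and fewer cells met a panel. The fits with ALB cells of 5 or more and of 20 or more UMIs were not run at the minimum of 10 barcodes per library, since too few libraries had them. Fits at a minimum of 5, within GCG-poor and GCG-rich barcodes and without COL1A1-rich or CHGA-poor barcodes were chosen after seeing the data. Where a value below differs from the main one and nothing else is said, the cause was not tested.

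Against ALB-zero cells, 195 genes were higher and 213 lower. DESeq2 gave 105 and 30, thinning 38 and 41, a reference matched on total UMIs 25 and 11, GCG-poor barcodes 43 and 35 and GCG-rich ones 30 and 12. Leaving out 1 library gave 87 to 153 higher and 60 to 183 lower, the lowest of both without replicate 3. Against TPH1 cells, 145 were higher and 126 lower. DESeq2 gave 68 and 35, no filter 239 and 327, thinning 66 and 50, matched depth 68 and 54, ALB cells of 5 or more UMIs 83 and 60, and leaving out COL1A1-rich or CHGA-poor barcodes 254 and 215. Leaving out 1 library gave 45 to 144 and 33 to 112, with 45 and 33 without replicate 1 and 78 and 72 without replicate 3. Against AFP cells, 144 were higher and 85 lower. DESeq2 gave 73 and 24, no filter 129 lower, a mitochondrial limit of 20% 71 and 46, thinning 39 and 23, matched depth 49 and 47, and ALB cells of 5 or more UMIs 93 and 41. Leaving out 1 library gave 51 to 122 and 8 to 91, with 51 and 11 without replicate 1 and 55 and 8 without replicate 3.

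Without the library as a replicate block, 33 genes were higher and 11 lower against ALB-zero cells, 106 and 99 against TPH1 cells, and 65 and 13 against AFP cells. Of the named genes called, 5 of 62, 31 of 59 and 16 of 45 kept their call under every alternative run.

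The share of ALB cells, 1.01%, was 2.97% with 1 or more ALB UMIs, 0.585% with 5 or more and 0.298% with 20 or more. The panel shares were 41.3% hepatic, 58.8% enterochromaffin, 98.7% alpha, 41.3% hepatic with alpha, 30.8% hepatic with enterochromaffin, 58.8% enterochromaffin with alpha and 30.8% all 3. In that order, leaving out the alpha share where it moved by less than its SD, 2 of 10 genes gave 76.9, 84.0, 76.9, 67.5, 84.0 and 67.5%. With 4 of 10 genes the shares were 8.01, 16.1, 91.8, 5.23, 0, 16.1 and 0%. With 2 UMIs per gene they were 9.34, 26.7, 89.0, 9.34, 2.56, 22.6 and 2.56%, and after thinning 12.5, 23.0, 81.5, 9.90, 1.33, 15.03 and 1.33%. ALB cells of 20 or more UMIs gave 55.6, 79.2, 95.8, 55.6, 51.4, 79.2 and 51.4%. The hepatic share, alone or with alpha, was 51.1% with 5 or more ALB UMIs and 46.7% with a mitochondrial limit of 20%.

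Directions turned against ALB-zero cells, on the log2 scale, within GCG-poor barcodes for CLDN18 (-1.10), ONECUT2 (-0.11), PRSS2 (-0.80) and SLC4A8 (0.10), and within GCG-rich ones for GHRL (0.52) and NR0B2 (-0.27). After thinning they turned for GPC3 (-0.28) and SLC39A5 (-0.66), and with ALB cells of 5 or more UMIs for LOXL4 (-2.80), LYZ (-1.79) and PRSS2 (-0.28). LYZ, which had no UMI in the ALB cells of replicates 1 and 2, also turned under DESeq2 (-1.93), without replicate 3 (-9.98, against 4.69 without replicate 2) and without COL1A1-rich or CHGA-poor barcodes (-1.03), and PRSS1 in the last of these (-0.036) and without replicate 3 (-1.27, against 5.45 without replicate 2). Against TPH1 cells GCG (-0.032) and LOXL4 (-1.34) turned with ALB cells of 5 or more UMIs and SST (0.13) with the mitochondrial limit of 20%. Against AFP cells LOXL4 (-2.11) turned with ALB cells of 5 or more UMIs.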
